A study of Mus musculus with 6 samples.

Results

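The genes described here govern how a mouse egg takes up lactate, pyruvate and glucose and passes pyruvate to its mitochondria. They are Ldha, Ldhb, Slc16a1, Slc16a3, Slc16a7, Mpc1, Mpc2, Pdha1, Pdhb and Slc2a1, chosen by name, and all 10 were found among the 24254 gene rows of the deposited table. The table holds 6 RNA-seq libraries of mouse oocytes arrested in metaphase II, when they are ready to be fertilized. For 3 libraries maturation took place in culture (in vitro maturation, IVM), and for 3 inside the animal (in vivo, IVO). The labels name no strain, age, hormone treatment, culture medium or number of eggs per library, and do not say whether replicates came from separate animals, so p-values here reflect the spread among these libraries alone, which may be technical. From the series title, the question is how maturation in culture changes gene expression of the egg.

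Pyruvate is the main fuel of the mouse egg, which uses glucose poorly by itself, and cumulus cells around it turn glucose into pyruvate and hand that over. Monocarboxylate transporters carry lactate and pyruvate across the plasma membrane, and lactate dehydrogenase, a tetramer of A and B subunits, interconverts both acids. The mitochondrial pyruvate carrier brings pyruvate into the matrix, where the pyruvate dehydrogenase complex turns it into acetyl-CoA for the tricarboxylic acid cycle.

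Values are FPKM, fragments scaled by transcript length and by mapped fragments, which allow levels of different genes to be compared per length. Differences are IVM minus IVO of log2(FPKM + 1), a scale on which changes of low genes appear too small, and a gene was called at an adjusted p under 0.05 (limma over the 7746 genes averaging 1 FPKM or more, Benjamini-Hochberg adjustment). Of these, 1595 (20.6%) were higher and 1583 (20.4%) lower in IVM. After scaling all libraries to an equal sum, 1949 were higher and 1167 lower, and the median difference over all tested genes was 0.0971 in place of -0.0191. The balance was the opposite under quantile normalization, with 1426 higher and 1778 lower, and with the trend of each library with transcript length removed, with 1366 and 1915. Summed FPKM was 353438 to 364983 in IVM libraries and 394233 to 402054 in IVO libraries. Read numbers are unknown, and judged by the spacing of low FPKM values the other libraries had 0.790 to 0.908 of the depth of IVM replicate 1. Of 12 oocyte genes 11 were tested, and 8 of these were higher in IVM while 3 did not pass, with a median difference of 1.89. The largest differences were those of the egg coat genes Zp3 (3.61) and Zp2 (3.54), and of Nlrp5 (3.26) and Ooep (3.06), which encode proteins of the subcortical maternal complex. Gdf9, which encodes an oocyte growth factor, was abundant in every library, at 7946 to 8707 FPKM in IVM and 6380 to 7465 FPKM in IVO, and its call was lost in 6 of 18 alternatives, among them the omission of IVM replicate 2 (limma with Benjamini-Hochberg adjusted p = 0.0575).

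The promoters of 4 of the genes are shown, chosen after their values were seen. Ldhb and Slc2a1 had the clearest difference. Ldha and Slc16a3, like Slc2a1 textbook targets of the hypoxia-inducible factors, had a lower mean in IVM. Ldha did not pass and Slc16a3 averaged less than 1 FPKM, and a part of these factors in the differences was not tested. The direction shared by these 3 genes, picked after their values were seen, does not describe targets of these factors as a set. Of 9 tested glycolytic enzyme genes Pkm (log2 difference 1.93) and Gpi1 (0.86) were higher in IVM, Hk2 (-0.75) was lower and 6 did not pass. Each sequence shown is the 250 bases before an annotated start, from RefSeq on GRCm38.p6, written 5′ to 3′ on the strand of the gene. The Slc16a3 window precedes a later start, since in GENCODE the gene starts at 120948480 and its deposited row at 120948482. For Ldha the GENCODE gene also starts earlier, at 46841475, but the deposited row starts at 46845802, where the window ends. Capitals mark the core letters of the hypoxia response element, ACGTG or GCGTG on either strand, and in CACGTG the core on 1 strand overlaps that on the other.
Ldhb, chr6:142507958-142508207, minus strand: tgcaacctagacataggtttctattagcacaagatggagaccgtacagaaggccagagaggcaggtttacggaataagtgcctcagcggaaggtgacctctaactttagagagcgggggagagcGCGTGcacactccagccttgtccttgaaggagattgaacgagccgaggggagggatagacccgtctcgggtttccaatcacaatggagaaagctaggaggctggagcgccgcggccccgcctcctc
Slc2a1, chr4:119108495-119108744, plus strand: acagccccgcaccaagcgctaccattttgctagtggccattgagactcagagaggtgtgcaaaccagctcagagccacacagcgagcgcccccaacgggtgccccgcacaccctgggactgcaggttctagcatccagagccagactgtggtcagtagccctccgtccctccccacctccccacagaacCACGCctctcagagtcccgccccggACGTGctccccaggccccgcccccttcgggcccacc
Slc16a3, chr11:120948817-120949066, plus strand: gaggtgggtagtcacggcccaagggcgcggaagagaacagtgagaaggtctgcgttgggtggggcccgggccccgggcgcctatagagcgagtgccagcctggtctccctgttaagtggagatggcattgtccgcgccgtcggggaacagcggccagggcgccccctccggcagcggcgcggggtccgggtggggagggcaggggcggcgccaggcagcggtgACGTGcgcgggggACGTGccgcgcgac
Ldha, chr7:46845554-46845803, plus strand: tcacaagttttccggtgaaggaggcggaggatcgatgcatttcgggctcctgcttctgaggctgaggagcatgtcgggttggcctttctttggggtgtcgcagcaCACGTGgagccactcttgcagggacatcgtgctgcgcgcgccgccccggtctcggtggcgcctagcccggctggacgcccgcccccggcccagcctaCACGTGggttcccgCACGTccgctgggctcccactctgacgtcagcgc

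The Ldhb window held 1 core, 126 bases before the start. The Slc2a1 window held 2, at 61 and 36 bases before it, and the Slc16a3 window 2, at 27 and 14 bases. In the Ldha window there were 5 matches, 4 of which form 2 CACGTG palindromes. The first windows of members not shown held 4 matches for Slc16a1, 3 for Pdha1, 2 for Pdhb and 1 each for Mpc1 and Mpc2. None of these genes passed the test between groups. At least 1 core was found in the first window of each of the 9 members that have a window in the RefSeq table, against 38.6% of all 32851 windows. The members' windows were richer in G and C (56.4% or more) than the median window of 52.4%, and among the 12345 windows at or above 56.4% the share with a core was 59.9%. That limit is the value of Ldhb, while the other members' first windows had 61.6% to 76.4%, so those 12345 windows are not matched to them. These are matches of letters only, and whether any factor binds there was not tested.

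Ldhb was by far the most abundant of the 10 genes and was higher in IVM eggs, while Slc2a1 was lower in IVM. Of the 8 members that reached the filter, 1 rose and 1 fell, and for the other 6 the test did not pass. Set against 20.6% of all tested genes higher and 20.4% lower, those counts are close to the background of this comparison. The median difference of the 8 was -0.0979, beside -0.0191 for all tested genes.

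**Figure D1:**
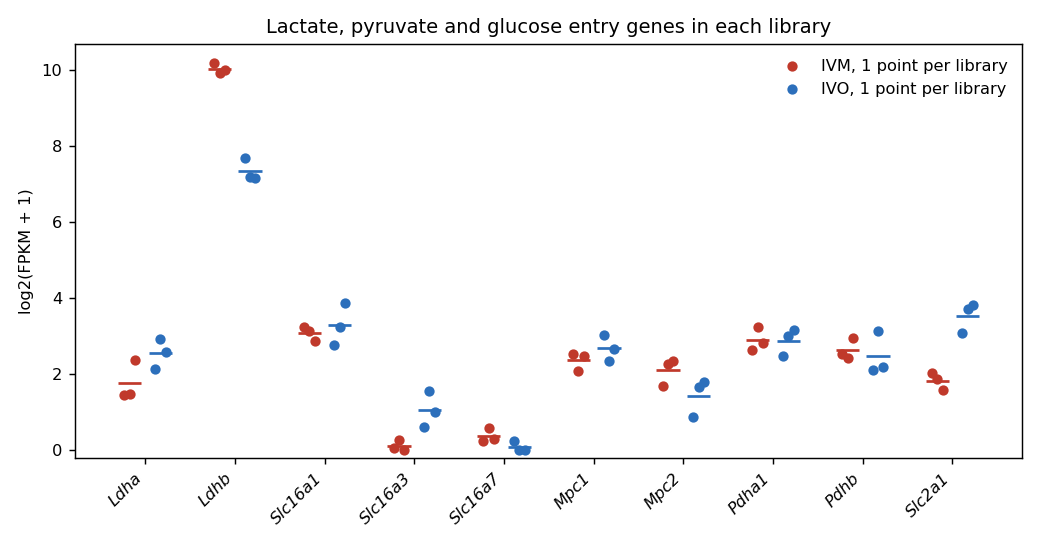
Level of each gene, as log2(FPKM + 1), with IVM libraries left and IVO libraries right of each tick, 1 point per library and a bar at the group mean. Ldhb stands above all others in both groups and higher in IVM, Slc2a1 is lower in all 3 IVM libraries, and Slc16a3 in IVM and Slc16a7 in both groups lie lowest.

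Ldhb encodes the B (heart-type) subunit of lactate dehydrogenase. It lies on the minus strand of chromosome 6 (GRCm38, 142490249 to 142507957, ENSMUSG00000030246.11). Its FPKM was 1162, 980.6 and 1023 in IVM replicates 1 to 3, against 206.4, 144.1 and 143.4 in IVO replicates 1 to 3. Every IVM library was above every IVO library, and the lowest IVM value was well over the highest IVO value. The mean in IVM was 6.41 times that in IVO, and the log2 difference was 2.69 (SE 0.140, limma with Benjamini-Hochberg adjusted p = 6.72e-06). Ldhb ranked as the 34th to 38th most abundant gene row in the IVM libraries and the 324th to 475th in the IVO libraries. It made up 0.271% to 0.318% of summed FPKM in IVM and 0.0363% to 0.0513% in IVO.

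Ldha encodes the A (muscle-type) subunit, which predominates in glycolytic tissues. The gene is on the plus strand of chromosome 7 (GRCm38, 46841475 to 46855627, ENSMUSG00000063229.15). Ldha was at 1.75, 1.80 and 4.17 FPKM in IVM replicates 1 to 3, against 3.41, 6.59 and 5.05 FPKM in IVO replicates 1 to 3. The groups overlapped because IVM replicate 3 lay above IVO replicate 1. The log2 difference was -0.78, with an unadjusted 95% interval of -1.46 to -0.11, and did not pass (limma, adjusted p = 0.0637 by Benjamini-Hochberg). The outcome changed with single libraries and with the processing. Without IVM replicate 3 the difference was -1.08 (adjusted p = 0.0198), and without IVO replicate 1 it was -0.99 (adjusted p = 0.0325). With all 6 libraries Ldha passed under quantile normalization (adjusted p = 0.0240), with the length trend removed (0.0219) and with the replicate block (0.0394), and over all refits its adjusted p was 0.0198 to 0.406. In the authors' deposited table Ldha had a q-value of 0.0178. With this, that table calls Ldhb higher in IVM, and Slc2a1 and Ldha lower, where 21.7% of the tested genes are called higher and 23.0% lower. Ldha has processed copies in the genome, Ldha-ps and Ldha-ps2 among them in the annotation, and its level is uncertain where reads were shared with them. In the same table Eno1, a glycolytic enzyme gene found in all cells, was at or below 9.5e-05 FPKM in every library, and Gapdh was at 0.438 to 0.597 FPKM in IVM and 0.101 to 0.792 FPKM in IVO.

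Within each library the transcripts of lactate dehydrogenase were almost all of the B kind. Ldhb made up 99.8%, 99.8% and 99.6% of the summed FPKM of Ldha and Ldhb in IVM replicates 1 to 3, against 98.4%, 95.6% and 96.6% in IVO replicates 1 to 3. The means were 99.8% ± 0.139 in IVM and 96.9% ± 1.39 in IVO (SD, n = 3 each), and the groups did not overlap (exact two-sided permutation test, p = 0.1, the smallest that 3 against 3 allows, and 0.4 adjusted over the 4 shares compared). A share within a library does not depend on how libraries are scaled to each other.

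**Figure D2:**
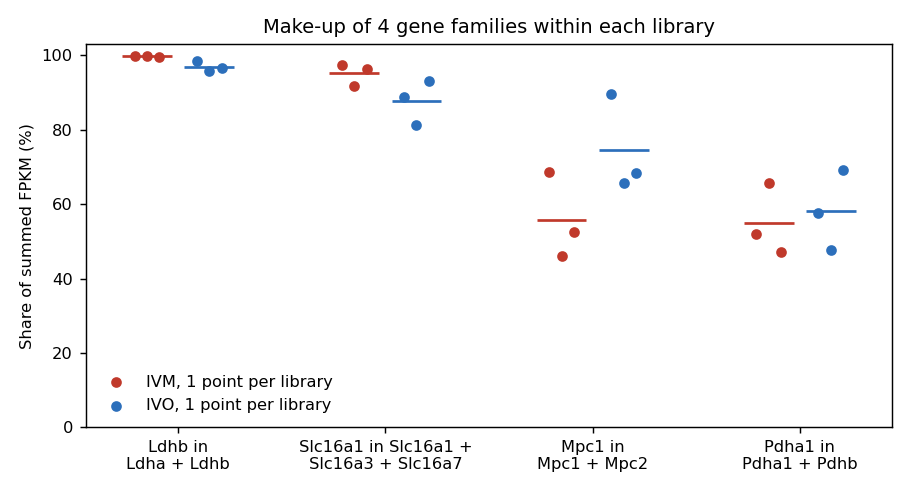
Share of summed FPKM taken by 1 gene of each family, in percent from 0, with IVM libraries left and IVO libraries right, 1 point per library and a bar at the group mean. The Ldhb share is 99.6% to 99.8% in IVM and 95.6% to 98.4% in IVO, and the other 3 shares overlap between the groups.

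Slc2a1 encodes GLUT1, the facilitative glucose transporter of most cell types. It is on the plus strand of chromosome 4 (GRCm38, 119108711 to 119137983, ENSMUSG00000028645.11), where a transcript on the opposite strand, Gm12868, overlaps its exons. Slc2a1 was at 3.13, 2.66 and 2.01 FPKM in IVM replicates 1 to 3, against 7.43, 12.1 and 13.2 FPKM in IVO replicates 1 to 3. No IVM library reached the lowest IVO library. The mean in IVO was 4.21 times that in IVM, with a log2 difference of -1.71 (SE 0.232, limma with Benjamini-Hochberg adjusted p = 0.000558). Its rank was 5377 to 6550 among gene rows in the IVM libraries and 2841 to 3669 in the IVO libraries. In IVO it was the second of the 10 genes by mean level, after Ldhb, and in IVM the seventh, although its range overlapped that of Slc16a1 in IVO and those of Mpc2 and Ldha in IVM.

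Ldhb and Slc2a1 were also the only members among the 8 tested whose libraries did not overlap between the groups. Over all tested genes, 25.8% were higher in IVM without overlap and 27.7% lower. The calls of both genes held in all 18 alternatives, with a log2 difference of 2.40 to 2.86 for Ldhb and -2.01 to -1.56 for Slc2a1.

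**Figure D3:**
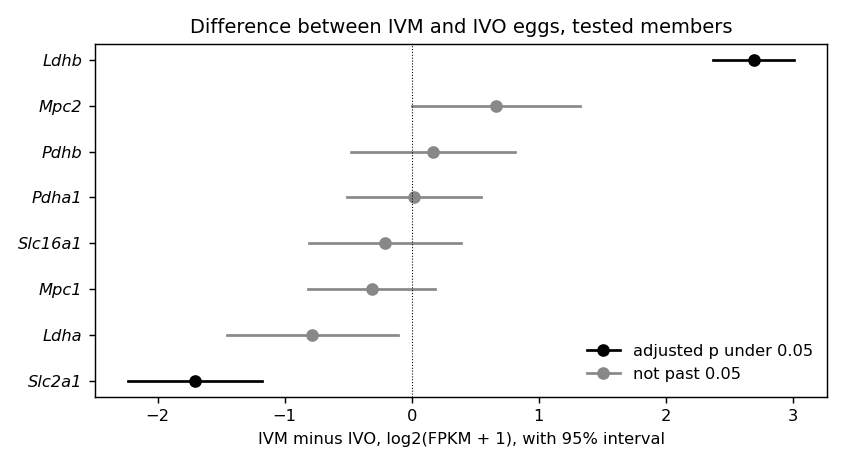
Difference between IVM and IVO eggs on the log2(FPKM + 1) scale for the 8 tested members, with a point at the estimate and a line over the unadjusted 95% interval from limma. Ldhb lies to the right at 2.69 and Slc2a1 to the left at -1.71, and the other 6 did not pass after adjustment.

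Of the 3 members that carry lactate and pyruvate across the plasma membrane, Slc16a1 was the most abundant in every library. It encodes MCT1, a carrier with broad expression. It was at 8.56, 7.83 and 6.37 FPKM in IVM replicates 1 to 3, against 5.89, 8.46 and 13.8 FPKM in IVO replicates 1 to 3. All 3 IVM values fell within the range of the IVO libraries, and the log2 difference was -0.21 with an interval of -0.81 to 0.38 (limma with Benjamini-Hochberg adjusted p = 0.552). This interval allows a change of either sign.

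Slc16a3 encodes MCT4, the lactate exporter of glycolytic cells, and Slc16a7 encodes MCT2, a carrier with high affinity for pyruvate. Neither reached a mean FPKM of 1, so neither was tested in the main fit. Slc16a3 was at 0.0387 and 0.213 FPKM and listed at 0 in IVM replicates 1 to 3, against 0.546, 1.96 and 1.02 FPKM in IVO replicates 1 to 3. The groups did not overlap (exact two-sided permutation test of log2(FPKM + 1), p = 0.1, the smallest possible). With no filter the difference was -0.96 (limma with Benjamini-Hochberg adjusted p = 0.0377), while the authors' deposited table gives a q-value of 0.268. Slc16a7 was at 0.190, 0.503 and 0.239 FPKM in IVM replicates 1 to 3, against 0.195 FPKM in IVO replicate 1 and listed values of 0 in IVO replicates 2 and 3. Its groups overlapped (exact two-sided permutation test, p = 0.2). A listed 0 can be a failed estimate in such a table.

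Slc16a1 made up 97.4%, 91.6% and 96.4% of the summed FPKM of the 3 carriers in IVM replicates 1 to 3, against 88.8%, 81.2% and 93.1% in IVO replicates 1 to 3. The groups overlapped (exact two-sided permutation test, p = 0.2, adjusted p = 0.4).

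Mpc1 and Mpc2 encode the 2 subunits of the mitochondrial pyruvate carrier, which acts as a heterodimer. Mpc1 was at 4.84, 3.25 and 4.58 FPKM in IVM replicates 1 to 3, against 7.26, 4.14 and 5.30 FPKM in IVO replicates 1 to 3, with a log2 difference of -0.32 (interval -0.82 to 0.19, limma with Benjamini-Hochberg adjusted p = 0.287). Mpc2 was at 2.22, 3.82 and 4.13 FPKM in IVM replicates 1 to 3, against 0.834, 2.16 and 2.46 FPKM in IVO replicates 1 to 3, with a log2 difference of 0.66 (interval 0.00484 to 1.32, limma with Benjamini-Hochberg adjusted p = 0.0986). Both genes overlapped between groups, and their estimates had opposite signs. With the trend of each library with transcript length removed, Mpc1 passed (log2 difference -0.70, adjusted p = 0.0277), and its longest annotated transcript, of 961 bases, is the shortest among the members. The row of Mpc1 covers a locus that also holds Sft2d1, and 4930506C21Rik on the opposite strand overlaps its exons, so reads may have been shared.

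Mpc1 made up 68.5%, 46.0% and 52.6% of the summed FPKM of Mpc1 and Mpc2 in IVM replicates 1 to 3, against 89.7%, 65.7% and 68.3% in IVO replicates 1 to 3. The mean difference was -18.9 percentage points, or -11.3 without IVO replicate 1, and IVM replicate 1 lay above 2 of the 3 IVO libraries (exact two-sided permutation test, p = 0.3, adjusted p = 0.4).

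Pdha1 and Pdhb encode the alpha and beta subunits of the first enzyme (E1) of the pyruvate dehydrogenase complex. Pdha1 was at 5.20, 8.53 and 6.05 FPKM in IVM replicates 1 to 3, against 4.59, 7.07 and 7.93 FPKM in IVO replicates 1 to 3, a log2 difference of 0.0165 (interval -0.51 to 0.54, limma with Benjamini-Hochberg adjusted p = 0.963). Pdhb was at 4.80, 4.44 and 6.79 FPKM in IVM replicates 1 to 3, against 3.37, 7.76 and 3.55 FPKM in IVO replicates 1 to 3, a log2 difference of 0.17 (interval -0.48 to 0.81, adjusted p = 0.675). For both subunits the libraries of the groups lay among each other, and the intervals leave room for changes in either direction. Pdha1 took 47.1% to 65.8% of the summed FPKM of both in IVM and 47.7% to 69.1% in IVO (exact two-sided permutation test, p = 0.7, also 0.7 adjusted). The deposited row of Pdha1 spans a locus that includes Map3k15, which overlaps it on the opposite strand, so its level is uncertain.

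In the order of mean levels, Ldhb came first in both groups and no range of another member came near it. In IVM eggs Slc16a1, Pdha1, Pdhb, Mpc1, Mpc2, Slc2a1 and Ldha followed, each with a range that overlapped the next. In IVO eggs the order was Slc2a1, Slc16a1, Pdha1, Mpc1, Ldha and Pdhb, again with overlapping neighbours, and then Mpc2 and Slc16a3, whose ranges overlapped each other but not those of Pdhb and Slc16a7. The 9 members other than Ldhb summed to 30.7 to 34.3 FPKM in IVM and 33.5 to 52.4 FPKM in IVO, so Ldhb alone made up 96.7% to 97.4% of the members' sum in IVM and 73.2% to 86.0% in IVO.

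Between single libraries of the same group, the authors' deposited table has no member with a q-value below 0.801, the value of Slc16a1 between IVO replicates 1 and 3. Slc16a1 was at 5.89 and 13.8 FPKM in these libraries. Such comparisons of 1 library with 1 have no replicates, so high q-values do not show that the libraries of a group agree.

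The genes whose pattern over the 6 libraries was most like that of Ldhb, by Pearson correlation of log2(FPKM + 1) among 4500 other genes averaging 5 FPKM or more, were Cmtm4 (r = 0.998), Cers2 (r = 0.998) and Scamp5 (r = 0.998). For Slc2a1 they were Prkd1 (r = 0.997), Ibtk (r = 0.996) and Angptl2 (r = 0.996). Such values were common, since 150 genes exceeded r = 0.98 with Ldhb and 106 with Slc2a1, and with 2 groups of libraries they largely restate the difference between groups.

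Lists of genes that work beside the members are described by their counts, to be read against the 20.6% of all tested genes that were higher and the 20.4% that were lower. These counts lie near that background. Of the 8 tested among 15 other monocarboxylate carriers and their chaperones, 2 rose, 1 fell and 5 did not pass. Bsg, which encodes basigin, the chaperone that brings MCT1 and MCT4 to the plasma membrane, was at 20.8, 20.4 and 16.3 FPKM in IVM replicates 1 to 3, against 3.87, 7.81 and 4.85 FPKM in IVO replicates 1 to 3 (log2 difference 1.67, limma with Benjamini-Hochberg adjusted p = 0.000492). The authors' deposited table gives Bsg a q-value of 0.416. Slc16a13 rose by a log2 difference of 0.81, and Slc16a10, an aromatic amino acid transporter gene, was at 158 ± 10.0 FPKM in IVM and 199 ± 9.36 FPKM in IVO (SD, n = 3 each; adjusted p = 0.0110). That call ended in 5 of 18 alternatives, scaling to an equal sum among them. Embigin (Emb), the chaperone of MCT2, was at 7.58 to 10.2 FPKM in IVM and 4.82 to 11.8 FPKM in IVO and did not pass.

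Among 3 relatives of the lactate dehydrogenase genes only Ldhd, which encodes the mitochondrial D-lactate dehydrogenase, reached the filter. It was at 2.42, 1.52 and 4.94 FPKM in IVM replicates 1 to 3, against 0.481, 0.641 and 0.366 FPKM in IVO replicates 1 to 3 (log2 difference 1.31, limma with Benjamini-Hochberg adjusted p = 0.00830). The testis subunit gene Ldhc was at 0.153 to 0.962 FPKM in IVM and at most 0.0901 FPKM in IVO, below the filter. All 3 IVM values of Ldhd were above those of IVO.

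Of 13 other glucose transporter genes 2 were tested, and neither passed. Slc2a10 was at 2.36 to 2.87 FPKM in IVM and 1.91 to 3.24 FPKM in IVO, and Slc2a12 at 1.23 to 1.94 FPKM in IVM and 1.31 to 3.84 FPKM in IVO. Slc2a3, which encodes the neuronal type transporter GLUT3, was at 0.0564 to 0.269 FPKM in IVM and 0.115 to 0.715 FPKM in IVO. Slc2a1 thus had the highest mean of the glucose transporter genes listed in both groups, although in IVM its range overlapped that of Slc2a10.

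Of the 8 tested partners and regulators of pyruvate dehydrogenase 1 fell and 7 did not pass. With libraries scaled to an equal sum or to an equal upper quartile, 1 was also higher. Under quantile normalization 1 was higher and 3 were lower. Pdhx, which encodes the protein that binds the E3 component to the complex, was at 20.9 to 23.7 FPKM in IVM and 30.5 to 47.9 FPKM in IVO (log2 difference -0.68, limma with Benjamini-Hochberg adjusted p = 0.0128). Leaving out IVM replicate 3 ended this call (adjusted p = 0.0513), and without IVO replicate 3 the number lower was 2. The kinase gene Pdk1, whose product inhibits the complex, was at 2.80 to 3.50 FPKM in IVM and 3.86 to 5.57 FPKM in IVO (adjusted p = 0.0597).

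Of 9 tested glycolytic enzyme genes 2 rose, 1 fell and 6 did not pass, with a median difference of 0.26. Pkm, which encodes the pyruvate kinase that makes pyruvate, was at 24.1, 24.4 and 27.8 FPKM in IVM replicates 1 to 3, against 5.18, 5.26 and 7.54 FPKM in IVO replicates 1 to 3 (log2 difference 1.93, limma with Benjamini-Hochberg adjusted p = 5.54e-05). Hk2, a hexokinase gene whose product phosphorylates glucose after entry, was at 2.85, 3.07 and 2.29 FPKM in IVM, against 4.63, 5.89 and 5.37 FPKM in IVO (log2 difference -0.75, adjusted p = 0.00862), a call that ended with both libraries numbered 2 left out. Gpi1, the isomerase gene of the next step, rose by 0.86, but leaving out either of IVO replicates 1 and 2, or IVM replicate 2, ended the call (adjusted p up to 0.0856). Bpgm, the bisphosphoglycerate mutase gene, stood apart in level, at 3489 ± 128 FPKM in IVM and 3355 ± 251 FPKM in IVO (SD, n = 3 each), and did not pass.

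Among 9 tested enzymes of the tricarboxylic acid cycle 2 rose, 3 fell and 4 did not pass, with a median of -0.19. The summed FPKM of this list was 141 to 150 in IVM and 200 to 215 in IVO, with Cs as the largest part in every library. Citrate synthase (Cs) was at 76.3, 78.3 and 68.8 FPKM in IVM replicates 1 to 3, against 132, 138 and 136 FPKM in IVO replicates 1 to 3 (log2 difference -0.86, limma with Benjamini-Hochberg adjusted p = 0.000112). Sucla2, for a succinyl-CoA ligase subunit, fell by 1.46 on the log2 scale. Dlst, for the E2 component of 2-oxoglutarate dehydrogenase, rose by 1.38, and Sdhd, for a membrane anchor of succinate dehydrogenase, by 1.54. Sdha, its flavoprotein subunit, fell by 0.78.

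The malate-aspartate shuttle moves the reducing equivalents from lactate oxidation into the mitochondrion. All 6 of its listed genes were tested, of which 2 rose and 1 fell. The cytosolic aminotransferase gene Got1 was at 3.37, 5.01 and 3.89 FPKM in IVM replicates 1 to 3, against 0.408, 0.859 and 1.20 FPKM in IVO replicates 1 to 3 (log2 difference 1.49, limma with Benjamini-Hochberg adjusted p = 0.00110). Its mitochondrial counterpart Got2 rose by 0.64, a call lost without any of 5 single libraries, IVO replicate 1 being the exception (adjusted p up to 0.117). Slc25a11, the 2-oxoglutarate carrier gene, fell by 1.02, and without IVO replicate 1 the number lower was 2.

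**Figure D4:**
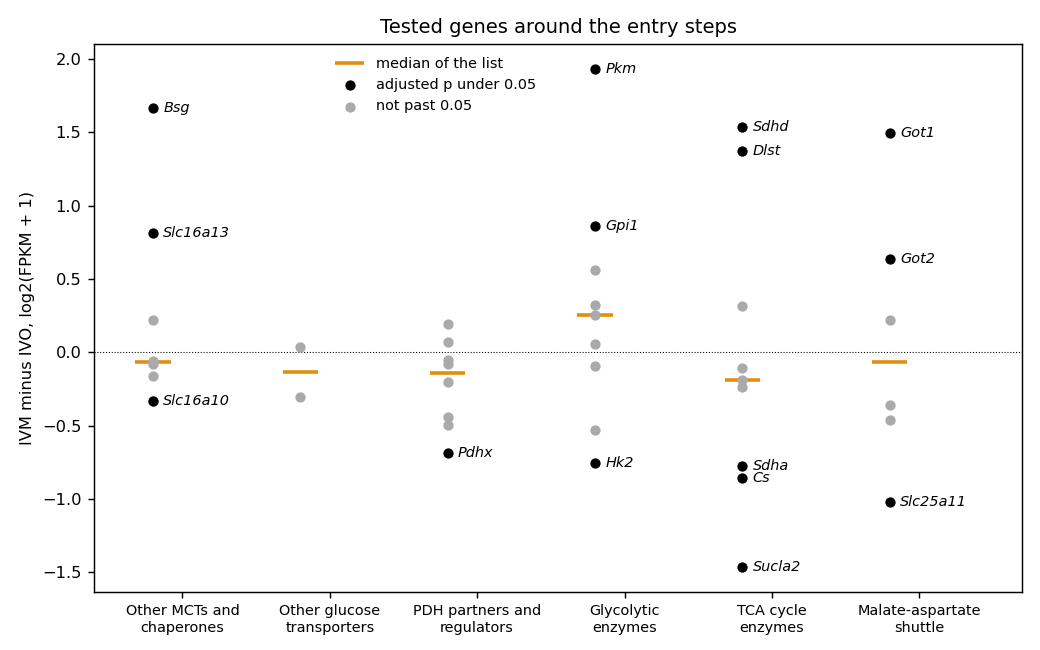
Difference between IVM and IVO eggs on the log2(FPKM + 1) scale for each tested gene of 6 lists around the entry steps (MCT, monocarboxylate transporter, and PDH, pyruvate dehydrogenase), with called genes in black and named, others in grey, and the median of each list as a bar. Medians lie between -0.19 and 0.26, with called genes on both sides of 0 in 4 of the lists.

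Markers of somatic cells that can adhere to eggs are given next. Their counts are to be read against the 20.6% of all tested genes higher in IVM and the 20.4% lower. Of 15 markers of cumulus and granulosa cells 9 reached the filter, of which 1 was higher and 3 lower in IVM, with a median difference of -1.04. The number lower was 1 without IVM replicate 3 and 5 without IVM replicate 1. With no filter on low values 4 were higher, with Amh, Foxl2 and Fshr beside Inha, and 3 were lower. The 3 lower genes, Tnfaip6, Inhba and Sdc4, averaged 0.242, 0.248 and 0.330 FPKM in IVM and reached the filter only through IVO. Amh, Foxl2 and Fshr were left out by the filter, so the median of -1.04 and the counts of the 9 depend on it. Tnfaip6, needed for the cumulus matrix, was at 0.726 FPKM in IVM replicate 1 and listed at 0 in IVM replicates 2 and 3, against 1.78, 5.14 and 1.37 FPKM in IVO replicates 1 to 3. Inhba, for an inhibin and activin subunit, fell by 1.28 and Sdc4, for a cell surface proteoglycan, by 1.04 on the log2 scale. The calls of Tnfaip6 and Sdc4 ended without IVM replicate 3 (limma with Benjamini-Hochberg adjusted p = 0.0539 and 0.0513). Inha, for the inhibin alpha subunit, was higher, at 10.8 to 27.7 FPKM in IVM and 1.60 to 7.08 FPKM in IVO. Summed FPKM of the list was 28.1 to 52.6 in IVM and 25.4 to 56.4 in IVO, and in IVM replicate 2, which had the highest sum of its group, Inha was the largest part while Ptx3 and Tnfaip6 were listed at 0. The receptor genes Fshr and Lhcgr were at 0 in all IVO libraries and at most 0.344 and 0.158 FPKM in IVM. Amh and Foxl2, also below the filter, were higher in every IVM library than in any IVO library. Amh was at 1.33, 2.24 and 1.68 FPKM in IVM replicates 1 to 3, against 0, 0.205 and 0.363 FPKM in IVO replicates 1 to 3. Foxl2 was at 0.551 to 0.803 FPKM in IVM and at most 0.137 FPKM in IVO.

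With both libraries numbered 2 left out, which had the highest sum of this list in their group, the difference of Ldhb was 2.66 (limma with Benjamini-Hochberg adjusted p = 0.000343), that of Slc2a1 -1.64 (adjusted p = 0.0127) and that of Ldha -0.45 (adjusted p = 0.406). The part of somatic cells in the differences of the members was not tested, and this omission does not test it. IVM replicate 1, which was kept, had the highest Ptx3 (6.11 FPKM) and Tnfaip6 (0.726 FPKM) of the IVM libraries. Among the IVO libraries both genes were highest in replicate 2, at 9.59 and 5.14 FPKM. In such bulk libraries fewer cells of a type and less RNA per cell cannot be told apart.

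Of 10 markers of oviduct epithelium 3 were tested, of which Cldn4 was higher and Cdh1 and Spp1 lower in IVM. The call of Cdh1 was lost in 9 of 18 alternatives, among them all 3 other scalings and the omission of IVM replicate 1, IVM replicate 3 or IVO replicate 1, which left 1 gene lower. In the authors' deposited table Spp1 has a q-value of 0.0812. The list summed to 220.8 to 247.7 FPKM in IVM and 262.8 to 283.5 FPKM in IVO, mostly Cdh1 and Cldn4. All other listed genes except Spp1 were at or below 1.31 FPKM, so this sum does not measure oviduct cells. Whether the transcripts of Cdh1 and Cldn4 came from the egg or from other cells was not tested. Pax8 and Wfdc2 were listed at 0 in every library. Krt8, Krt18, Foxj1 and Muc1, all below the filter, reached at most 1.31, 1.08, 0.430 and 0.244 FPKM in any library. The defining oviduct gene Ovgp1 was at most 0.182 FPKM in IVM and 1.03 FPKM in IVO, and Spp1 was at 12.2 and 1.31 FPKM and listed at 0 in IVM, against 26.7, 67.6 and 31.3 FPKM in IVO. None of 6 blood and immune cell markers reached the filter, with sums of 0.678 to 2.45 FPKM in IVM and 0.215 to 3.05 FPKM in IVO.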

How the data were processed

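Total RNA of metaphase II oocytes was purified on columns with a DNase step and made into Illumina libraries, per the labels' protocols. The authors' table gives, per the file headers, FPKM per gene and library, with p-values and q-values of their own comparisons, of which the smallest p-value is 5e-05. For aligner, counting, annotation and strand nothing is given in the sources. Their log2 ratio columns hold spreadsheet error text and were not used, so directions come from mean FPKM. Per the submitters' processing notes the build is mm9, but 22966 of 23104 symbols matched in GENCODE M21 (99.4%) overlap the gene of that name in GRCm38, whose coordinates are printed. The table lacks 1 emptied row, and 27 symbols had become dates.

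The 7746 genes averaging 1 FPKM or more entered a two-sided limma 3.58.1 fit (R 4.3.3) of log2(FPKM + 1), with trend set, and Benjamini-Hochberg adjustment at 0.05. No count test was run and no counting error can be given, since read numbers are unknown. Shares within a library were compared by an exact permutation test in scipy 1.17.1 over 20 assignments of libraries to groups. The fit was tested on simulated data with the same spread for every gene and few changed genes. These data differ in both respects, so that test checks the code and not the calls made here. The members and lists were chosen with earlier results of these data known. Named genes are all members and, from each list, up to 4 passing genes with the largest difference, or the smallest p where none passed; other genes were named after their values were seen. Alternatives covered pseudocount, filter, scaling, trend, transcript length, replicate block, threshold, the authors' q-values and each library left out. The omission of both libraries numbered 2 was added after seeing the data.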

Additional observations from a re-analysis of the deposited data

How the results depend on the processing

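Of the members, Ldhb and Slc2a1 kept direction and call in all 18 alternatives, while Slc16a1, Pdha1 and Pdhb passed in none of 18, with differences of -0.47 to 0.08, -0.18 to 0.15 and -0.01 to 0.59. Ldha passed in 6 of 17, and Mpc1 and Mpc2 in 1 of 17 each. The number of members higher in IVM was 2 in place of 1 with the replicate block, through Mpc2 (adjusted p = 0.0272). The number lower was 2 in place of 1 with quantile normalization, with the replicate block and by the authors' q-value, each through Ldha, and 2 with no filter, through Slc16a3. It was 3 with the transcript length trend removed, through Ldha and Mpc1, and 1 to 2 with single libraries left out. The groups share replicate numbers, but same-numbered libraries deviated together only weakly (r = 0.0777, 0.0599 and 0.0900), too little to pair them, although each library correlated best with its own number. With the replicate block 1626 genes were higher and 1558 lower, against 1595 and 1583 without it. Numbers of higher and lower genes were 1019 and 1009 at an adjusted p under 0.01, and 904 and 864 with both libraries numbered 2 left out, which leaves fewer samples. At a mean FPKM of at least 5, where fewer genes are tested, 835 were higher and 1392 lower. The 4 shares do not depend on scaling, and with single libraries left out none changed to a call, which 2 against 3 does not allow. Without read numbers, values under about 1 FPKM, as for Slc16a3 and Slc16a7, have no stated precision.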
